A study of Rattus norvegicus with 74 samples.

Results

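The miR-106b-25 and miR-363 clusters are both paralogues of the miR-17-92 cluster, and their miRNAs were measured in rat kidney across the life span. Members were all miRNAs on the array named for miR-106b, miR-93, miR-25, miR-20b or miR-363, with either arm, that were detected on at least 1 array. The array carried 10 such names, of which 6 were detected, out of 311 miRNAs detected in all and 677 on the array. The 6 were rno-miR-106b-5p, rno-miR-106b-3p, rno-miR-93-5p and rno-miR-25-3p of the miR-106b-25 cluster and rno-miR-20b-5p and rno-miR-363-3p of the miR-363 cluster, written below without the rat prefix. The opposite arms miR-93-3p, miR-25-5p, miR-20b-3p and miR-363-5p were not detected on any of the 74 arrays.

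The series measured miRNA levels in whole kidney of untreated F344 rats, an inbred strain used widely in toxicology, with 1 Agilent single-colour array per animal. Both sexes were sampled at 8 ages, namely 2 weeks (before weaning), 5, 6 and 8 weeks, then 15 and 21 weeks, and in old age 78 and 104 weeks, which gave 16 groups and 74 arrays. There were 4 arrays for 2-, 5-, 8- and 21-week females and for 8- and 104-week males, and 5 arrays for each of the other groups. The design asks how the level of each miRNA differs between ages within a sex, and between the sexes at each age. No treatment or allele is named for any group. Females were not synchronized for estrous cycle, animals were killed by CO2 asphyxiation, and RNA came from ground whole kidney, so no value can be assigned to a kidney cell type. In such bulk tissue, fewer cells of a type and less RNA per cell cannot be told apart. Values are normalized intensities, that is the total gene signal of a miRNA divided by a 75th percentile of its array. That percentile was taken over the 311 miRNAs detected on at least 1 array of the series, and differences are on the log2 scale.

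A miRNA recognizes its targets mainly through its seed, the bases near its 5′ end. The paralogous clusters arose by duplication and carry miRNAs of the same seed families, which repress regulators of the cell cycle and of apoptosis, among them Cdkn1a and Bcl2l11. The miR-106b-25 cluster lies within Mcm7, a gene for a subunit of the replicative helicase that is transcribed in dividing cells, and the miR-363 cluster lies on the X chromosome. The miR-17-92 cluster itself is known for its part in the growth of nephron progenitors.

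The mature sequences of the 6 members are shown because seed membership cut across the clusters. Capitals mark the seed, bases 2 to 8, and all sequences and positions were taken from RefSeq on build GRCr8, where each of the 6 names was matched. Every locus is on the minus strand.
miR-106b-5p: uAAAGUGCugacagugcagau
miR-93-5p: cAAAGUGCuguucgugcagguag
miR-20b-5p: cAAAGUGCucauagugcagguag
miR-25-3p: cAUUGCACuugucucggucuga
miR-363-3p: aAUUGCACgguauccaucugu
miR-106b-3p: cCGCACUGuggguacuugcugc

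On chromosome 12, miR-106b-5p lies at chr12:22157103-22157123, miR-93-5p at chr12:22156894-22156916 and miR-25-3p at chr12:22156652-22156673, all inside the span of Mcm7 at chr12:22155921-22163320. On the X chromosome, miR-20b-5p lies at chrX:137343239-137343261 and miR-363-3p at chrX:137342788-137342808. The stretch from the first to the last mature sequence was 472 bases for the miR-106b-25 members and 474 bases for the miR-363 members. Aligned from the 5′ end, miR-20b-5p differed from miR-93-5p at 3 of 23 positions and from miR-106b-5p at 4 of 21, with 0 differences in the seed. By contrast, miR-25-3p and miR-363-3p shared the seed and differed at 13 of 21 positions. Whether probes for such close sequences tell them apart was not tested. RefSeq gives miR-17-5p, miR-19b-3p and miR-92a-3p the same mature sequence at loci on chromosomes 15 and X, so these copies cannot be told apart by their sequence.

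The strands that carried the signal were detected on all 74 arrays for miR-106b-5p, miR-93-5p, miR-25-3p and miR-20b-5p, and on 72 arrays for miR-363-3p. Both arrays without miR-363-3p came from 78-week females and were set to the floor of 0.0171, the lowest detected signal over the smallest 75th percentile. The sixth member, miR-106b-3p, was detected on 12 arrays, which included 3 of 4 2-week females and 4 of 5 2-week males, and lay at the floor on 71 arrays after scaling. Its highest value was 0.0277, in a 2-week male, so it is described by detection and not by fold changes. The 75th percentile of the arrays ran from 81.2 to 283, with 190 to 264 miRNAs detected per array, and 0 miRNA spots were saturated. All 9 kidney markers were detected on 74 arrays and the neuronal marker miR-124-3p and the muscle markers miR-1-3p and miR-133a-3p on 0, while the remaining muscle marker, miR-206-3p, was detected on 17 arrays, with its highest group mean of 0.0365 in 21-week males, and the liver marker miR-122-5p on 69. Arrays lay on 10 slides. Ages of 2 to 8 weeks and ages of 15 to 104 weeks were on separate slides, the exception being 15-week female replicate 5, whose slide otherwise held the younger ages. Comparisons across these ages, such as 104 against 2 weeks, therefore also compare slides.

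**Figure D1:**
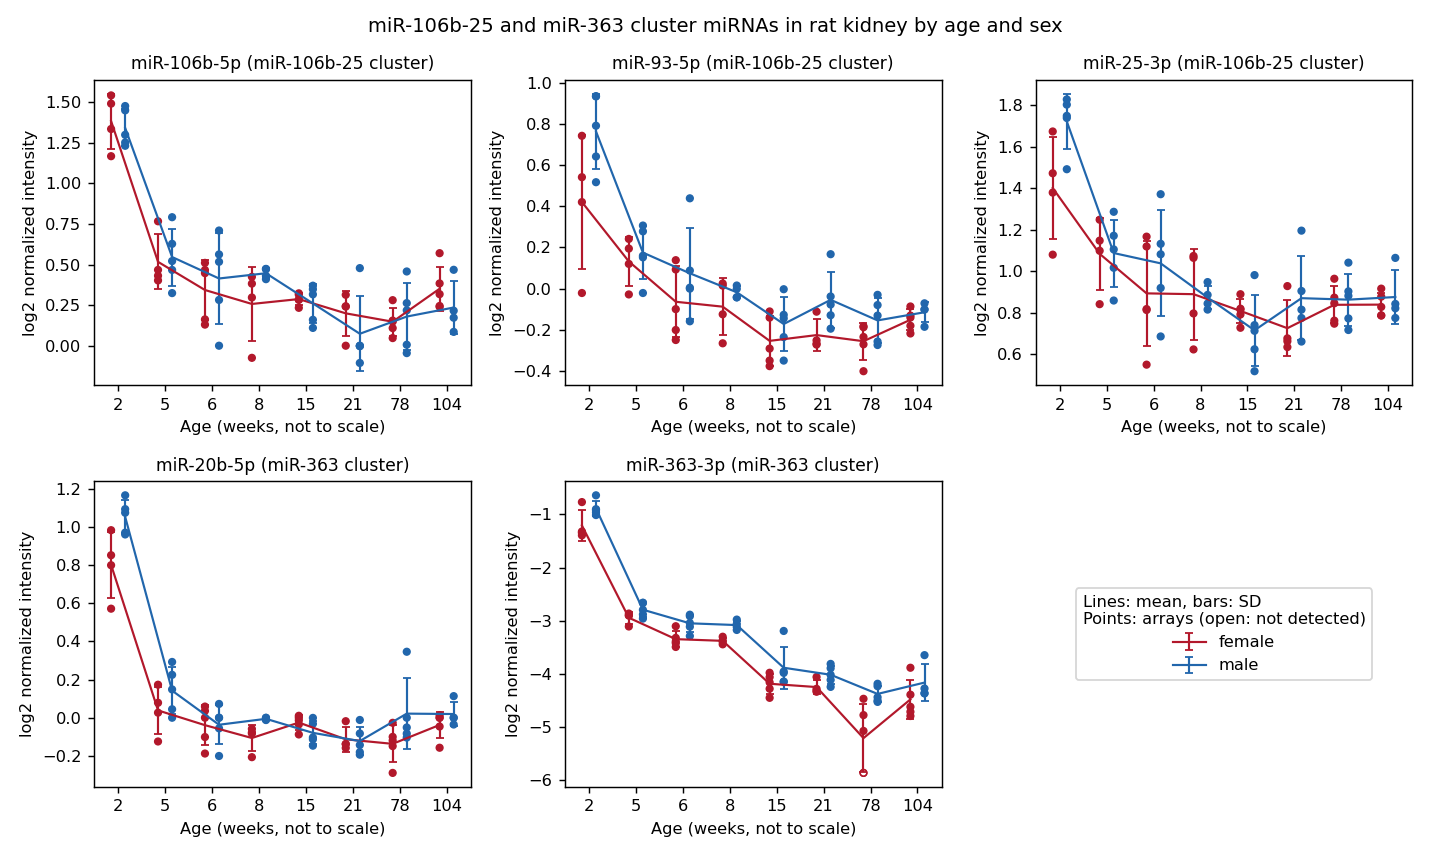
Level of the 5 major strands by age, as log2 normalized intensity, with females in red and males in blue; points are arrays (open where not detected), lines join group means and bars are SD, on ages drawn at equal steps. All 5 strands stand highest at 2 weeks, and miR-363-3p goes on falling after 5 weeks, while the group means of each of the other 4 span at most 1.39-fold from 5 weeks on.

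All 5 major strands of both clusters were highest at 2 weeks and changed with age in both sexes. By limma's F test with Benjamini-Hochberg adjustment over 311 miRNAs, 5 of 6 members were called in females, against 36.7% of all miRNAs, and the same number in males, against 45.3%. The exception in both sexes was miR-106b-3p. Adjusted p ranged from 0.000292 for miR-25-3p to 1.70e-14 for miR-363-3p in females, and from 2.39e-08 to 3.99e-19 for the same miRNAs in males. The widest separation between any ages was 16.1-fold in females and 11.3-fold in males for miR-363-3p, and lay between 1.60-fold and 2.41-fold for the other 4. In females miR-25-3p was not called under quantile normalization (limma adjusted p = 0.0623) or with the percentile over all miRNAs, where no pair of ages met the fold (limma adjusted p = 0.0282), and with normexp, an offset of 50 and quantile normalization only miR-106b-5p and miR-363-3p were called in females.

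The AAAGUGC miRNA of the miR-106b-25 cluster that moved most was miR-106b-5p. In females it measured 2.25, 2.52, 2.81 and 2.91 at 2 weeks and 1.18, 1.18, 1.25, 1.30 and 1.48 at 104 weeks. In males it measured 2.35, 2.38, 2.46, 2.73 and 2.78 at 2 weeks and 1.06, 1.13, 1.16 and 1.38 at 104 weeks. No 104-week array reached a 2-week array in either sex. The difference was -1.03 ± 0.11 (SE) in females (limma adjusted p = 5.19e-12) and -1.11 ± 0.11 in males (limma adjusted p = 3.64e-13), which is 2.05-fold and 2.15-fold lower.

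Its neighbour miR-93-5p, which has the same seed, was called lower in males and not in females. Females measured 0.985, 1.34, 1.46 and 1.67 at 2 weeks and 0.860, 0.883, 0.907, 0.913 and 0.942 at 104 weeks. Males measured 1.43, 1.56, 1.73, 1.91 and 1.91 at 2 weeks and 0.879, 0.932, 0.932 and 0.952 at 104 weeks. The groups did not overlap, although the lowest 2-week female lay close to the 104-week arrays. The difference was -0.57 ± 0.10 (SE) in females, 1.49-fold and so just under the 1.5-fold threshold (limma adjusted p = 1.31e-06), and -0.88 ± 0.10 in males, 1.84-fold (limma adjusted p = 1.02e-11). Without that female, replicate 3, the female difference was -0.72 and was called, and it was also called, at -0.59, without 104-week female replicate 3.

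The third miRNA of the cluster, miR-25-3p, carries the AUUGCAC seed and had the same calls as miR-93-5p. In females it measured 2.11, 2.60, 2.77 and 3.19 at 2 weeks and 1.72, 1.72, 1.77, 1.84 and 1.89 at 104 weeks. In males it measured 2.81, 3.34, 3.36, 3.49 and 3.55 at 2 weeks and 1.71, 1.77, 1.79 and 2.09 at 104 weeks. Groups were again apart. The difference was -0.56 ± 0.11 (SE) in females, 1.48-fold (limma adjusted p = 2.21e-05), and -0.85 ± 0.11 in males, 1.80-fold (limma adjusted p = 1.73e-09). Without 2-week female replicate 3 the female difference was -0.67 and was called, and under quantile normalization it was -0.31.

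In the miR-363 cluster, miR-20b-5p, an AAAGUGC miRNA, was called lower in both sexes. Females measured 1.49, 1.74, 1.80 and 1.97 at 2 weeks and 0.897, 0.969, 1.0, 1.0 and 1.01 at 104 weeks. Males measured 1.94, 1.96, 2.10, 2.13 and 2.24 at 2 weeks and 0.976, 1.0, 1.0 and 1.08 at 104 weeks. Every 2-week array lay above every 104-week array of its sex. The difference was -0.84 ± 0.07 (SE) in females, 1.79-fold (limma adjusted p = 8.55e-17), and -1.03 ± 0.07 in males, 2.05-fold (limma adjusted p = 7.07e-21).

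The last member, miR-363-3p, which carries the AUUGCAC seed of miR-25-3p, fell most of the 6 in log2 terms. In females it measured 0.381, 0.393, 0.400 and 0.588 at 2 weeks and 0.0359, 0.0380, 0.0405, 0.0475 and 0.0675 at 104 weeks. In males it measured 0.496, 0.514, 0.530, 0.536 and 0.642 at 2 weeks and 0.0483, 0.0484, 0.0515 and 0.0796 at 104 weeks. The lowest 2-week array stood several times above the highest 104-week array. The difference was -3.28 ± 0.18 (SE) in both sexes, 9.70-fold in females (limma adjusted p = 3.44e-24) and 9.73-fold in males (limma adjusted p = 2.50e-24). At a fold of 1.5, the members called lower at 104 than at 2 weeks were 3 of 6 in females (miR-106b-5p, miR-20b-5p and miR-363-3p), against 12.2% of all miRNAs, and 5 of 6 in males, against 17.7%. Arrays of both ages did not overlap for 5 of 6 members in each sex, against 31.2% of all miRNAs in females and 40.8% in males. The median log2 difference of the 6 members was -0.71 in females and -0.96 in males, while that of the 166 miRNAs detected on all arrays was 0.01 and -0.11. The median of the members counts miR-106b-3p, which lay at the floor on 71 of 74 arrays. The summed level of the 4 leukocyte markers, of which miR-142-5p was on 10 arrays, had a mean of 1.76 (1.69 to 1.86) at 2 weeks and 6.51 (5.56 to 7.67) at 104 weeks in males and of 2.07 (2.00 to 2.12) and 3.44 (3.32 to 3.57) in females, with miR-142-3p, miR-150-5p and miR-223-3p on all 74 arrays, and its part in these differences was not tested. The red blood cell markers miR-451-5p (74 arrays) and miR-144-3p (5 arrays) summed to a mean of 0.893 (0.810 to 0.959) at 2 weeks and 2.53 (1.84 to 3.73) at 104 weeks in females and of 1.05 (0.988 to 1.08) and 3.14 (2.52 to 4.43) in males. The liver marker miR-122-5p had a mean of 5.11 (0.397 to 23.6) at 2 weeks and 0.102 (0.0171 to 0.175) at 104 weeks in males and of 0.0936 (0.0774 to 0.107) and 0.490 (0.293 to 0.672) in females. The part of these markers was not tested either.

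**Figure D2:**
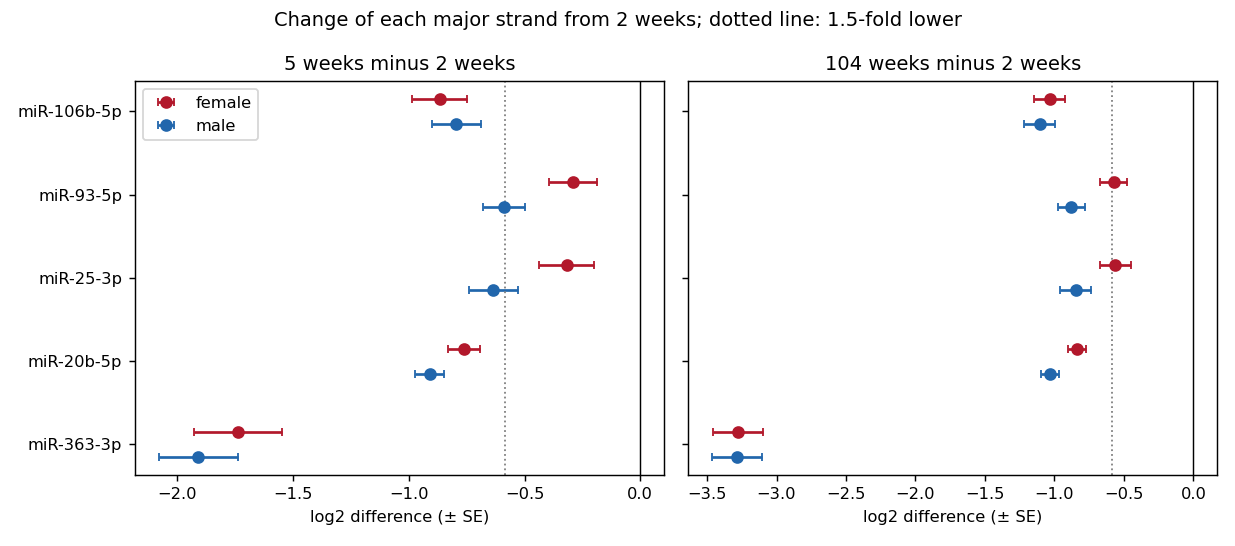
Log2 difference of each major strand from 2 to 5 weeks (left) and from 2 to 104 weeks (right), with SE from limma, females in red and males in blue; the dotted line marks 1.5-fold lower. The point for miR-363-3p lies at -3.28 on the right in both sexes and every other member lies between -1.11 and -0.56.

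Much of the difference was already present at 5 weeks. Arrays at 5 weeks ran from 1.25 to 1.73 for miR-106b-5p, 0.981 to 1.24 for miR-93-5p, 1.79 to 2.44 for miR-25-3p and 0.917 to 1.22 for miR-20b-5p over both sexes. In males all 5 major strands were called lower at 5 weeks, against 12.5% of all miRNAs, by -0.80 ± 0.11 (SE) for miR-106b-5p, -0.59 ± 0.09 for miR-93-5p, -0.64 ± 0.11 for miR-25-3p, -0.91 ± 0.06 for miR-20b-5p and -1.91 ± 0.17 for miR-363-3p. In females 3 were called lower, against 11.9%, by -0.87 ± 0.12 for miR-106b-5p, -0.76 ± 0.07 for miR-20b-5p and -1.74 ± 0.19 for miR-363-3p. The female differences of miR-25-3p (-0.32 ± 0.12) and miR-93-5p (-0.29 ± 0.10) had limma adjusted p of 0.0331 and 0.0255 but a fold under 1.5, and their ranges overlapped. Under quantile normalization the former was -0.07, on its first probe alone it was -0.09, and the latter ran from -0.44 to -0.18 when 1 array was left out. The male difference of miR-93-5p was 1.5-fold and lost its call when any of 5 single arrays was left out, and that of miR-25-3p when 5-week male replicate 1 was. With normexp background correction, an offset of 50 and quantile normalization together, 1 step between neighbouring ages was called for the members, in place of 12.

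From 5 weeks on, 0 of the 48 steps tested by limma for miR-106b-5p, miR-93-5p, miR-25-3p and miR-20b-5p between neighbouring ages were called, against 2.14% in females and 2.52% in males for the same steps of all miRNAs, and 2 had an unadjusted p under 0.05, both for miR-20b-5p in males. Over the 14 groups without the 2-week ages, their group means spanned 1.39-fold for miR-106b-5p, 1.35-fold for miR-93-5p, 1.30-fold for miR-25-3p and 1.21-fold for miR-20b-5p. The mean of miR-363-3p spanned 5.35-fold over the same groups.

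The level of miR-363-3p went down in stages. Female levels were 0.116, 0.133, 0.134 and 0.137 at 5 weeks, then 0.0917, 0.0948, 0.0963 and 0.101 at 8 weeks, and fell to 0.0456, 0.0513, 0.0558, 0.0598 and 0.0632 by 15 weeks. Male levels were 0.128, 0.135, 0.144, 0.157 and 0.158 at 5 weeks, then 0.111, 0.115, 0.120 and 0.127 at 8 weeks, and fell to 0.0563, 0.0563, 0.0631, 0.0642 and 0.109 by 15 weeks. The 15-week arrays were below all 8-week arrays of their sex. From 8 to 15 weeks the difference was -0.81 ± 0.18 (SE) in females (limma adjusted p = 0.0021), against 0.643% of miRNAs called lower, and -0.80 ± 0.18 in males (limma adjusted p = 0.00572), against 0.965%.

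This step coincided with the change of slides. With slide as a fixed block it was -0.64 in females (limma adjusted p = 0.813) and -0.58 in males (limma adjusted p = 1.0), a fit in which only 1 array joins the younger and older slides. That array, 15-week female replicate 5 on a slide of the younger ages, measured 0.0598 for miR-363-3p, while the other 15-week females measured 0.0456 to 0.0632 and the 8-week females 0.0917 to 0.101. For miR-363-3p it lay among its own age group. For miR-93-5p (0.926 against 0.770 to 0.907) and miR-25-3p (1.85 against 1.65 to 1.76) it lay above the other 15-week females, within the range of the 8-week females. A single array cannot separate slide from age. Within the ages of 2 to 8 weeks, which shared slides, the age effect of miR-363-3p was called in both sexes (limma adjusted p = 1.58e-08 in females and 6.24e-12 in males), and within 15 to 104 weeks in females (limma adjusted p = 0.0319) and not in males (limma adjusted p = 0.171). The female test over 15 to 104 weeks included the 2 arrays of 78-week females set to the floor. It was not run without them.

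At the later ages miR-363-3p reached its lowest level at 78 weeks in both sexes. In females it measured 0.0493, 0.05, 0.0513 and 0.0598 at 21 weeks and 0.0171, 0.0171, 0.0296, 0.0364 and 0.0450 at 78 weeks, where 3 of 5 arrays detected it. In males it measured 0.0526, 0.0576, 0.0615, 0.0671 and 0.0710 at 21 weeks and 0.0432, 0.0440, 0.0459, 0.0530 and 0.0548 at 78 weeks. All 78-week females were below all 21-week females, while the male ranges overlapped. The female difference was -0.96 ± 0.18 (SE; limma adjusted p = 9.64e-05), against 1.93% of miRNAs called lower, and the male one -0.36 ± 0.17 (limma adjusted p = 0.107). Females at 104 weeks were higher than at 78 weeks by 0.73 ± 0.17 (limma adjusted p = 0.00682), against 1.61% called higher, with overlapping ranges. Leaving out both arrays without a detected miR-363-3p gave -0.53 (limma adjusted p = 0.0731) and 0.29 (limma adjusted p = 0.426), and the rise to 104 weeks also lost its call without 104-week female replicate 1, 78-week female replicate 1 or 78-week female replicate 6 (lowest 0.57).

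Each age group's mean for miR-363-3p in females ran 0.440 ± 0.0985 (SD, n = 4) at 2 weeks, 0.130 ± 0.00965 (n = 4) at 5 weeks, 0.0985 ± 0.0106 (n = 5) at 6 weeks, 0.0960 ± 0.00399 (n = 4) at 8 weeks, 0.0551 ± 0.00695 (n = 5) at 15 weeks, 0.0526 ± 0.00488 (n = 4) at 21 weeks, 0.0459 ± 0.0129 (n = 5) at 104 weeks and 0.0290 ± 0.0122 (n = 5) at 78 weeks. In males the order was the same, with 0.544 ± 0.0571 (SD, n = 5), 0.145 ± 0.0131 (n = 5), 0.121 ± 0.0133 (n = 5), 0.118 ± 0.00684 (n = 4), 0.0698 ± 0.0223 (n = 5), 0.0620 ± 0.00734 (n = 5), 0.0569 ± 0.0152 (n = 4) and 0.0482 ± 0.00535 (n = 5). Neighbours in this order that were not called and whose ranges overlapped were 5 and 6, 6 and 8, and 15 and 21 weeks in both sexes, and 104 and 78 weeks in males. The order of 21 and 104 weeks was not tested, and their ranges overlapped in both sexes.

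The comparison between the clusters was made within each array, where the 75th percentile cancels but a difference between slides in 1 strand does not. For each pair of the 5 major strands, the log2 ratio was compared between ages with an exact two-sided permutation test, in 80 tests adjusted together, whose smallest possible p was 0.00794 for 5 arrays against 4 and 0.0286 for 4 against 4. From 2 to 104 weeks 13 of 20 ratios changed, 8 of 12 between the clusters and 5 of 8 within a cluster. All 8 ratios that involved miR-363-3p were among them. Leaving out 1 array gave 0 to 14 called ratios. Fewer arrays also allow fewer permutations, and the part of that in the counts was not tested.

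Within the miR-363 cluster, the ratio of miR-20b-5p to miR-363-3p rose by 2.44 ± 0.28 (SE) in females and by 2.25 ± 0.17 in males (exact permutation adjusted p = 0.0353 in each). Against the miR-106b-25 members, the ratio over miR-363-3p rose by 2.25 to 2.71 in females and by 2.18 to 2.43 in males (exact permutation adjusted p = 0.0353 for all 6). The ratio of miR-106b-5p to miR-20b-5p, from different clusters with a shared seed, moved by -0.19 ± 0.09 in females (exact permutation adjusted p = 0.141) and by -0.07 ± 0.07 in males (exact permutation adjusted p = 0.361). In the main setting the change of miR-20b-5p was thus nearer to that of miR-106b-5p than to that of its own neighbour miR-363-3p. With normexp, an offset of 50 and quantile normalization, the female differences were -0.44 for miR-20b-5p, -0.63 for miR-363-3p and -0.66 for miR-106b-5p. There miR-20b-5p was nearer to miR-363-3p. The male differences in that setting were -0.74, -0.69 and -0.76, with miR-20b-5p nearer to miR-106b-5p.

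Inside the miR-106b-25 cluster, miR-93-5p and miR-25-3p had the smallest change of ratio, -0.01 ± 0.05 in females and -0.03 ± 0.08 in males (exact permutation adjusted p = 0.928 and 0.720). The ratio of miR-106b-5p to miR-93-5p fell by 0.46 in females (exact permutation adjusted p = 0.0353) and its change in males was -0.23 ± 0.08 (exact permutation adjusted p = 0.0814). The ratio of miR-106b-5p to miR-25-3p fell by 0.47 in females and by 0.26 in males (exact permutation adjusted p = 0.0488 in each). In females miR-93-5p and miR-25-3p also rose relative to miR-20b-5p, by 0.27 and 0.28 (exact permutation adjusted p = 0.0353 in each), and the male changes were 0.15 (exact permutation adjusted p = 0.183) and 0.18 (exact permutation adjusted p = 0.0602).

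By interval, 6 of 10 ratios changed from 2 to 8 weeks in males and 0 of 10 in females, where 4 arrays against 4 gave an adjusted p of 0.0602 at best. The 6 male changes over that interval were 1.14 ± 0.11 (SE) for miR-20b-5p, 1.30 ± 0.11 for miR-106b-5p, 1.42 ± 0.13 for miR-93-5p and 1.35 ± 0.09 for miR-25-3p, all over miR-363-3p (exact permutation adjusted p = 0.0353 in each), and 0.16 ± 0.05 for miR-106b-5p and 0.28 ± 0.09 for miR-93-5p over miR-20b-5p (exact permutation adjusted p = 0.0488 in each). From 8 to 15 weeks 5 of 10 changed in females and 2 of 10 in males, and from 15 to 104 weeks 0 of 10 in either sex. The interval of 8 to 15 weeks, like that of 2 to 104 weeks, crossed the change of slides, and the part of slides in the ratios was not tested. With normexp background correction, an offset of 50 and quantile normalization, 0 of 20 ratios changed from 2 to 104 weeks and miR-363-3p differed by -0.63 in females and -0.69 in males, close to the -0.66 and -0.76 of miR-106b-5p. The offset is added to the signal of every spot. The median total gene signal of miR-363-3p, which merges its spots and so is on another scale, was 80.7 at 2 weeks and 8.38 at 104 weeks. The part of the offset in the lost calls, which included ratios without miR-363-3p, was not tested.

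**Figure D3:**
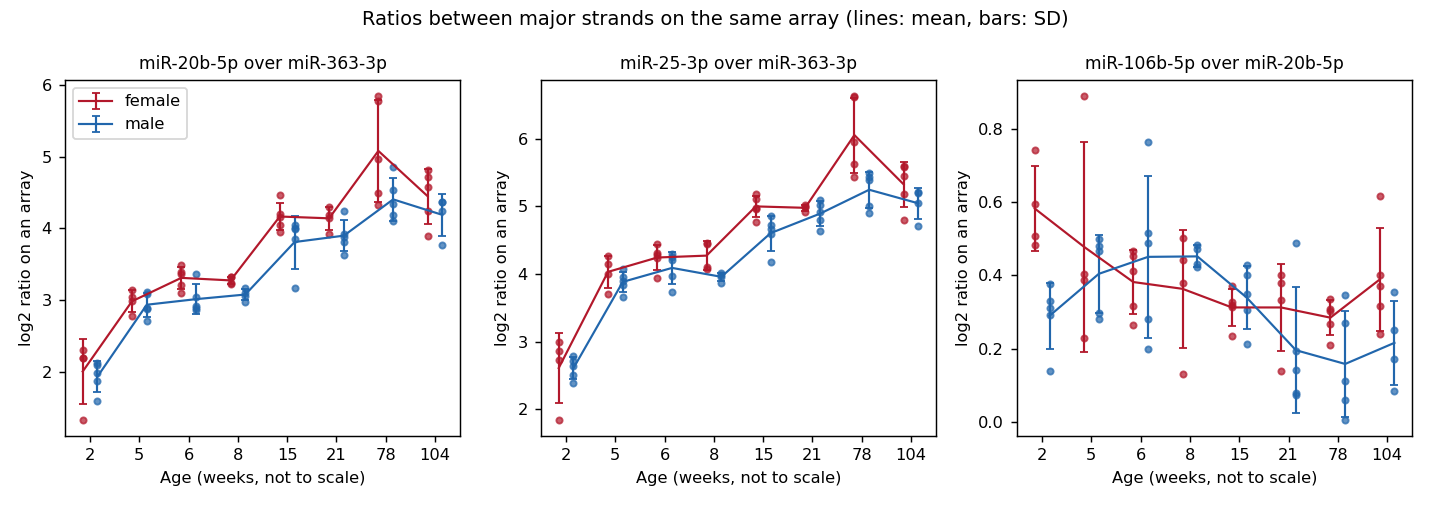
Log2 ratio of miR-20b-5p to miR-363-3p, of miR-25-3p to miR-363-3p and of miR-106b-5p to miR-20b-5p on each array by age, females in red and males in blue; lines join group means and bars are SD. The first 2 ratios climb with age, by 2.44 and 2.71 in females from 2 to 104 weeks, while the third moved by -0.19 in females and -0.07 in males.

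Differences between animals of one group were compared as well, as deviations of each log2 value from its group mean over 74 arrays, for 10 pairs of major strands. The closest pair was miR-93-5p and miR-25-3p of one cluster, with a Pearson r of 0.85 and a Spearman rho of 0.80 (permutation adjusted p = 5e-05 for each, where 1e-05 is the smallest p that 100000 resamples can give). The next was miR-106b-5p and miR-20b-5p of different clusters, with an r of 0.58 and a rho of 0.55 (permutation adjusted p = 5e-05 for each). By contrast, miR-20b-5p and miR-363-3p of one cluster had an r of -0.19 and a rho of -0.16 (permutation adjusted p = 0.163 and 0.220). All arrays' deviations share the scaling, and the median r over all 13695 pairs of miRNAs detected on all arrays was 0.10. The permutations moved deviations freely over arrays, across groups and slides, so these p-values take no account of slides.

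For miR-106b-5p with its cluster neighbours, r was 0.39 with miR-93-5p (rho 0.39, permutation adjusted p = 0.00167 and 0.003) and 0.22 with miR-25-3p (rho 0.18, permutation adjusted p = 0.0992 and 0.212). A further 2 cross-cluster pairs passed by Pearson r, miR-93-5p with miR-20b-5p at 0.32 (rho 0.25, permutation adjusted p = 0.0158 and 0.0629) and miR-25-3p with miR-363-3p at 0.30 (rho 0.32, permutation adjusted p = 0.0213 and 0.013). The other 3 pairs ranged from -0.02 to 0.16. Without the 2 arrays farthest from the median of the first-named strand of a pair, r was 0.83 for miR-93-5p and miR-25-3p and 0.54 for miR-106b-5p and miR-20b-5p. With slide means removed over all arrays it was 0.72 and 0.55. For miR-106b-5p with miR-93-5p and with miR-25-3p the slide-corrected r was 0.22 and 0.01. For the other pairs that passed, r without the 2 farthest arrays was 0.47 for miR-106b-5p with miR-93-5p, 0.25 for miR-93-5p with miR-20b-5p and 0.32 for miR-25-3p with miR-363-3p. With slide means removed r was 0.21 and 0.29 for the last 2 of these.

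**Figure D4:**
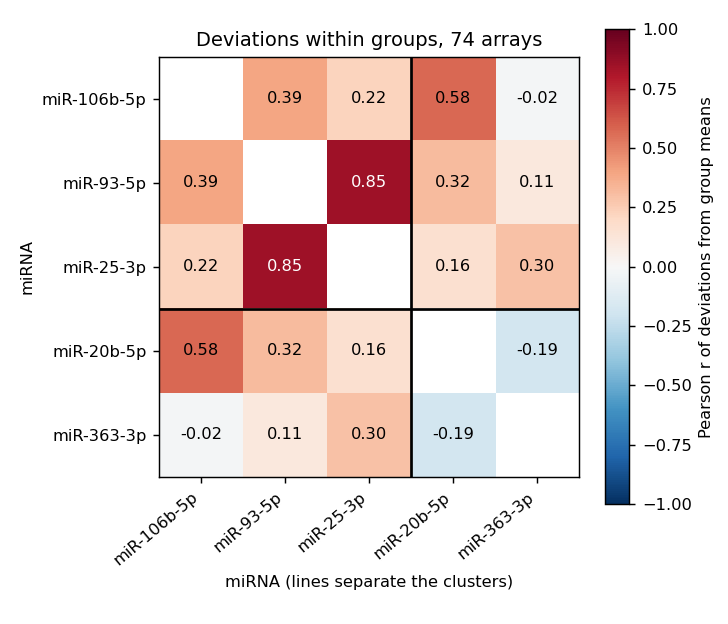
Pearson r between deviations from group means for each pair of major strands over 74 arrays, with lines separating the miR-106b-25 from the miR-363 cluster. The strongest cell is miR-93-5p with miR-25-3p at 0.85, followed by miR-106b-5p with miR-20b-5p at 0.58, while miR-20b-5p with miR-363-3p is at -0.19.

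The miRNAs of the miR-106b-25 cluster share a host gene, whose promoter is given here because its span holds all 3 strands. Capitals mark matches to any of 4 E2F-type motifs, TTTCCCGC, TTTCGCGC, TTTGCCGC and TTTGGCGC, searched on both strands, where E2F factors drive genes of DNA replication. The RefSeq window on build GRCr8, chr12:22163129-22163428 on the minus strand, is 300 bases long and spans the gene start.
Mcm7 promoter: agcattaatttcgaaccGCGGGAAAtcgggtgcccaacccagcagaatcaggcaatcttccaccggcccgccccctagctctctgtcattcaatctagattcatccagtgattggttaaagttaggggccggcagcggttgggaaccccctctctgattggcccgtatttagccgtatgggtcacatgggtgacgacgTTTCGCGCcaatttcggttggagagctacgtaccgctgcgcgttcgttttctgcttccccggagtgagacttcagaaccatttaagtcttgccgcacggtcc

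TTTCCCGC matched on the opposite strand from base 18 and TTTCGCGC on the given strand from base 199. Of 33469 promoter windows of the same length 2.14% held at least 1 of the 4 motifs and 0.0837% held matches at 2 or more places. Mcm7 itself was not measured on the array, and a match describes these letters only.

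Sex differences were small beside the differences with age. Of the 6 members 1, miR-363-3p at 78 weeks, was called between the sexes, against 17.4% of all miRNAs called at 1 or more ages and 6.75% called at 78 weeks. As given above, 78-week females measured 0.0171 to 0.0450 and 78-week males 0.0432 to 0.0548, so that 1 female lay within the male range. The male level was higher by 0.83 ± 0.17 (SE), 1.78-fold (limma adjusted p = 0.00015). Leaving out both females without detected signal gave 0.40 (limma adjusted p = 0.101), and the call was also lost in the normexp setting (0.06, limma adjusted p = 0.274), with the methods' t-test (adjusted p = 0.122) and on the second probe alone (0.58, limma adjusted p = 0.00214, under 1.5-fold), the first probe being at the floor with no value. At the same age the red blood cell marker sum was 2.76 (2.01 to 3.13) in males and 1.67 (1.31 to 2.14) in females and the leukocyte marker sum was 5.09 (4.05 to 7.10) in males and 3.11 (2.59 to 3.51) in females, and their part was not tested.

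The male mean of miR-363-3p was above the female mean at all 8 ages, by 0.15 to 0.83 in the main setting. The direction was the same under each of the 6 scalings, but the size was 0.03 to 0.11 with normexp and 0.12 to 1.41 with quantile normalization. The share of all miRNAs with 1 direction at all 8 ages was not computed. At 8 weeks the sexes did not overlap, against 11.9% of all miRNAs, with 0.0917, 0.0948, 0.0963 and 0.101 in females and 0.111, 0.115, 0.120 and 0.127 in males (limma adjusted p = 0.652). Values of miR-20b-5p were apart at that age too. At 2 weeks males were higher for miR-93-5p by 0.34 ± 0.10 (limma adjusted p = 0.0138) and for miR-20b-5p by 0.25 ± 0.07 (limma adjusted p = 0.00687), both under 1.5-fold with overlapping ranges. With the percentile over miRNAs detected on all arrays these were 0.18 (limma adjusted p = 0.368) and 0.09 (limma adjusted p = 0.75), and without 2-week female replicate 3 they were 0.20 and 0.17. The values of miR-25-3p at 2 weeks were 0.32 ± 0.11 apart (limma adjusted p = 0.0506), and those of miR-106b-5p -0.04 ± 0.11 (limma adjusted p = 1.0). The age profile differed between the sexes for 0 of 6 members by limma's interaction test, with 2 at an unadjusted p under 0.05 (miR-20b-5p, adjusted p = 0.119, and miR-106b-3p, adjusted p = 0.0581), against 27.7% of all miRNAs called. Values of miR-106b-3p lay at the floor on 71 of 74 arrays, and those above it all came from 2-week males.

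Among the relatives of the miR-17-92 cluster, miR-17-5p and miR-18a-5p were called lower at 104 than at 2 weeks in both sexes, miR-19b-3p in females and miR-20a-5p in males, out of 7 relatives detected. The difference of miR-17-5p was -0.73 in females and -1.0 in males (limma adjusted p = 6.84e-10 and 1.28e-14), and that of miR-18a-5p -1.46 and -1.26 (limma adjusted p = 1.80e-05 and 0.000146). The AUUGCAC miRNA miR-92a-3p differed by -0.30 and -0.57 (limma adjusted p = 0.00808 and 8.86e-07), under 1.5-fold. The values of miR-19a-3p were -0.83 in females and 0.02 in males (limma adjusted p = 0.123 and 1.0), and miR-32-5p lay at the floor in all groups.

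The miRNAs most alike in pattern were found by the correlation of group means over the 16 groups, as a description. For miR-363-3p these were miR-181a-5p (r = 0.98), miR-542-5p (0.98) and miR-181c-5p (0.97), and over the 14 groups without the 2-week ages their r was 0.95, 0.95 and 0.90. For miR-106b-5p they were miR-322-5p (0.99), miR-542-3p (0.96) and miR-152-3p (0.96), and for miR-20b-5p miR-17-5p (0.98), miR-20a-5p (0.98) and miR-322-5p (0.97). For miR-93-5p they were miR-17-5p (0.96), miR-181a-5p (0.95) and miR-450a-5p (0.94), and for miR-25-3p miR-17-5p (0.96), miR-92a-3p (0.94) and miR-181d-5p (0.94). Without the 2-week groups the r of the first-named miRNA was 0.87 for miR-106b-5p, 0.83 for miR-93-5p, 0.73 for miR-25-3p and 0.81 for miR-20b-5p.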

How the data were processed

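Total kidney RNA of 74 F344 rats was labelled with Cy3 by the authors and run on Agilent arrays for rat miRNAs, 1 colour per array. Per the file headers, the scanner software removed background and merged all spots for 1 miRNA into its total gene signal, an intensity on a linear scale that is 0.1 where the miRNA was not detected. These deposited scanner intensities were used here. The deposited table of processed values was not used, since each of its 74 columns equalled the values of some array within 0.01 (log2) but only 5 equalled those of the array they are named for.

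Each intensity was divided by its array's 75th percentile, taken over 311 miRNAs with a detected signal on at least 1 array, set to a common floor of 0.0171 and taken to log2. All 16 groups were fitted together in limma 3.58.1 (R 4.3.3, 58 residual degrees of freedom), except that the age F test was fitted on the arrays of 1 sex, with p-values adjusted by Benjamini-Hochberg over 311 miRNAs. Calls needed a fold of 1.5 or more and an adjusted p below 0.05, the age test needing 1 pair of ages that far apart with an unadjusted p below 0.05 and the interaction test no fold. Ratios between strands were tested by exact two-sided permutation over arrays. Each animal gave 1 array, and the number of arrays limits the precision. Levels of different miRNAs were not compared. The fit and the ratio tests were first tested on simulated data. Alternatives covered scaling, background correction, filters, single probes, slide and replicate blocks, the tests of the study's methods and leaving out each array.

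The named members were those of the selection, the relatives were those of the miR-17-92 families, and for likeness the 3 miRNAs with the highest correlation of group means were named for each strand. Members, lists and tests were chosen with earlier results of these data known. Replicate numbers did not pair the samples: deviations of the same number in both sexes of an age correlated at -0.05 on average (28 pairs), against 0.01 for other numbers (143 pairs). Slides did leave a trace, at 0.22 for different groups on 1 slide and -0.02 on different slides.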

Additional observations from a re-analysis of the deposited data

Results flagged for a closer look

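In 11 of 81 groups of 4 or 5 arrays, 1 array lay apart from the others, by a gap over the whole range of the group above Dixon's 95% critical value; chance gives about 1 in 20. For miR-363-3p these were 2-week female replicate 3 (0.588 against 0.381 to 0.400, gap 0.886 of the range), 5-week female replicate 5 (0.116 against 0.133 to 0.137, gap 0.843), 15-week male replicate 2 (0.109 against 0.0563 to 0.0642, gap 0.800) and 104-week male replicate 2 (0.0796 against 0.0483 to 0.0515, gap 0.872). For miR-20b-5p they were 8-week female replicate 2 (0.867 against 0.944 to 0.960, gap 0.836), 21-week female replicate 6 (0.987 against 0.896 to 0.909, gap 0.849) and 78-week male replicate 6 (1.27 against 0.931 to 1.0, gap 0.769).

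In the miR-106b-25 cluster, miR-106b-5p was high in 21-week male replicate 2 (1.39 against 0.929 to 1.0, gap 0.818). The level of miR-25-3p was low in 2-week male replicate 1 (2.81 against 3.34 to 3.55, gap 0.734). In 21-week female replicate 4 both miR-25-3p (1.90 against 1.55 to 1.60, gap 0.857) and miR-93-5p (0.925 against 0.828 to 0.840, gap 0.872) were high. The array 2-week female replicate 3 was highest of its group for miR-363-3p and lowest for miR-93-5p and miR-25-3p.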

How the results depend on the processing

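Of the 27 single comparisons under up to 15 alternatives each, 334 values stayed on the same side of the threshold, 31 lost a call and 11 gained one, and 0 turned direction. A further 5 had no value on the first probe of miR-363-3p, where both groups compared lay at the floor. With normexp, an offset of 50 and quantile normalization, 2 members were called with age in females, 3 were lower at 104 than at 2 weeks in males, 1 step between neighbouring ages was called, 0 sex differences, 1 interaction and 0 ratios. Ages of 2 to 8 weeks alone gave 3 members with age in females, and ages of 15 to 104 weeks alone 1 in females and 0 in males. At 104 against 2 weeks in females, 5 were lower with the percentile over miRNAs detected on all arrays and 5 with no fold threshold. The first probe alone gave 7 neighbouring steps in place of 12. Between the sexes, quantile normalization gave 3 calls, no fold threshold 4, and 0 came from the first probe (where miR-363-3p has no value at 78 weeks), the second probe, the methods' t-test or leaving out both arrays without miR-363-3p, an alternative chosen after seeing the data. Interaction calls were 2 with quantile normalization and 1 each over all miRNAs of the array, with slide as a fixed block and with slide as a random block. With the replicate block, the counts for age in females and males (5 and 5), 104 against 2 weeks (3 and 5), steps (12), sexes (1) and interaction (0) kept their values, and the numbers did not pair the samples. A fixed slide block in the males' age test could not be fitted, since their slides and ages share no link. Leaving out 1 array gave 4 to 5 members with age in females, 5 in males, 3 to 5 lower at 104 weeks in females (5 without 2-week female replicate 3) and 5 in males, 10 to 12 steps, 1 sex difference, 0 to 1 interactions (1 without 2-week female replicate 4 or 2-week male replicate 2, 3 or 5) and 0 to 14 ratios. The ratio count moved by more than 1.5-fold for 17 of 74 arrays, namely any 2-week array, any 104-week female and 104-week male replicates 1, 3 and 6. Fewer permutations remain without any of these, and the part of that was not tested. The 15 against 8 week step of miR-363-3p in males also lost its call with the percentile over all miRNAs (-0.67, adjusted p = 0.0557 by limma) and with quantile normalization (-0.82, adjusted p = 0.0726). The percentile over miRNAs detected on all arrays moved the median of those 166 miRNAs at 104 against 2 weeks from -0.11 to 0.11 in males and from 0.01 to -0.12 in females, and the 5 major strands were lower at 104 and at 5 weeks than at 2 weeks under all 6 scalings. Values of miR-363-3p from 15 weeks on lie near the floor, which limits them.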
